A study of Mus musculus with 2 samples.

Results

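Processed pseudogenes are copies of spliced messenger RNAs that were reverse-transcribed and inserted back into the genome, so they lack the introns of the gene they came from and usually its promoter. Testis is a tissue in which many such copies are transcribed, and some of them have become working genes called retrogenes. Because a young copy is nearly identical to its parent messenger RNA, a sequencing read can fit both, and quantification programs divide such reads between them by a model.

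The members described here are the autosomal genes that GENCODE release M21 classes as processed pseudogenes and that were listed at 5 TPM or more in both libraries. TPM is a transcript level scaled for transcript length and sequencing depth. The measured TPM values chose the 96 members out of 4335 autosomal processed pseudogenes in the tables, which is 2.21%, so their being expressed is no finding. Of the others, 2927 were at 0 counts in both libraries. All values come from polyA RNA-seq of the testis of 1 adult male C57BL/6J mouse aged 10 weeks, an inbred strain with no allele or treatment named. Its RNA was made into 2 technical replicate libraries, of which replicate 2 was made in 2015 per the labels. There is 1 group, no condition and no second animal, so a difference between the libraries compares their reads only.

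Replicate 1 holds 31995377 expected counts (estimated reads) over all entries and replicate 2 holds 20675551. All 6 spermatid and all 5 spermatocyte markers examined, and all 4 Sertoli and all 4 Leydig markers, were at 1 TPM or more in both libraries, against 3 of 4 spermatogonial, 2 of 3 epididymal and 0 of 2 macrophage markers. The liver marker Alb was at 1.34 and 3.64 TPM. The libraries stood far apart: the summed level of the spermatid markers was 5424 TPM in replicate 1 and 45254 TPM in replicate 2. The protamine and transition protein genes Prm1, Prm2, Tnp1 and Tnp2 made up that gap, Prm2 alone being at 45.4 and 15928 TPM, whereas the other spermatid markers had lower values in replicate 2 (Acrv1 at 388 and 372 TPM, Spaca1 at 503 and 245 TPM). Of all genes tested between the libraries, 56.0% differed 2-fold or more.

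Examples of the sequences that separate copies, or fail to, are shown first, for a few of the members. The levels below rest on whole transcripts, of which these are short stretches. Each is 90 bases of the coding part of the parent transcript and the stretch of the pseudogene aligned to it without gaps, 5′ to 3′, and capitals mark bases that differ from the parent. They come from the GENCODE M21 transcripts (GRCm38, the mm10 assembly), and the parent is the coding gene with the best match. The first set is Ppp1r2, which encodes inhibitor 2 of protein phosphatase 1, and its 5 member copies, over coding bases 343 to 432.
Ppp1r2: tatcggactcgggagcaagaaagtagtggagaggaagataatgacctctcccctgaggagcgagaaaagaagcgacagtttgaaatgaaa
Ppp1r2-ps6: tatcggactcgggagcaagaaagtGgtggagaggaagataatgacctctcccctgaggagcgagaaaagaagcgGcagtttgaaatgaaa
Ppp1r2-ps3: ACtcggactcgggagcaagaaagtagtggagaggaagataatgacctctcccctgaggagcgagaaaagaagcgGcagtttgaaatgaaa
Ppp1r2-ps1: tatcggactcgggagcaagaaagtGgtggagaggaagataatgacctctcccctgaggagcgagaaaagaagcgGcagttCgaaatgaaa
Ppp1r2-ps4: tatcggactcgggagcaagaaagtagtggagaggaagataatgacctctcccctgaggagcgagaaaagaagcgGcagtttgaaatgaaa
Ppp1r2-ps2: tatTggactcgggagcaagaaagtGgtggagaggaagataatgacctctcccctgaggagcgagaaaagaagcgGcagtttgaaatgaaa
These stretches lie at chr17:6254245-6254334 on the plus strand (ps6), chr19:30539117-30539206 on the minus strand (ps3), chr17:6324211-6324300 on the minus strand (ps1), chr9:66805495-66805584 on the minus strand (ps4) and chr6:90906175-90906264 on the plus strand (ps2). They differ from Ppp1r2 at 2, 3, 3, 1 and 3 of 90 bases. The copies share 1 of those changes, and that base alone parts them from Ppp1r2 without parting them from one another. A read that also covers another change in the window can part some of the copies.

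The second set is Ndufb4, a subunit of complex I of the respiratory chain, with an exact copy and a diverged one, over coding bases 244 to 333.
Ndufb4: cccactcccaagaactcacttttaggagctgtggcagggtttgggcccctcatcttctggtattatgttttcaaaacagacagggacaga
Ndufb4c: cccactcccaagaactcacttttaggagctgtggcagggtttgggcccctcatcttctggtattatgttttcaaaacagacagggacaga
Gm20519: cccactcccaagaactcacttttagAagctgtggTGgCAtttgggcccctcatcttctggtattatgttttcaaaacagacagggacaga
Ndufb4c lies at chr15:73809564-73809653 and Gm20519 at chr9:21533679-21533768, both on the minus strand. Ndufb4c differs from Ndufb4 at 0 of these 90 bases and at 0 bases of its whole length, while Gm20519 differs at 5 here and is 80.6% identical overall.

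The third set is Rpl27a, a protein of the large ribosomal subunit, and Gm7536 at chr3:24333068-24333157 on the plus strand, over coding bases 1 to 90. It is shown because Gm7536 has a count with a small SD and yet no stretch of its own.
Rpl27a: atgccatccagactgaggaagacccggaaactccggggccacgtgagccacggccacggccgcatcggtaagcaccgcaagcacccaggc
Gm7536: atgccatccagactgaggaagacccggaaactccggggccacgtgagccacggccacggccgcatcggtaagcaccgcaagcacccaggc
The fourth set is Ptp4a2, a protein tyrosine phosphatase, with an old copy, Gm11780, and a closer one, Gm13422, over coding bases 82 to 171.
Ptp4a2: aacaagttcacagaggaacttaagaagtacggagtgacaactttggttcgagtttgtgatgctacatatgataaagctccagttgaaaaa
Gm11780: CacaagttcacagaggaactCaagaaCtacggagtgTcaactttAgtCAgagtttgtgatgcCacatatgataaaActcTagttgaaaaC
Gm13422: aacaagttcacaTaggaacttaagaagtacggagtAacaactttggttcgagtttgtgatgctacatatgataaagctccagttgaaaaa
Gm11780, at chr4:4528549-4528638 on the minus strand, differs at 11 bases and Gm13422, at chr2:23235317-23235406 on the plus strand, at 2. The last set is Gapdh, the glycolytic glyceraldehyde-3-phosphate dehydrogenase, and Gm6981 at chr9:52002976-52003065 on the minus strand, over coding bases 211 to 300.
Gapdh: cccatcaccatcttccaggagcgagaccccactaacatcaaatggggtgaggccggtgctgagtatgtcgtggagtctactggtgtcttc
Gm6981: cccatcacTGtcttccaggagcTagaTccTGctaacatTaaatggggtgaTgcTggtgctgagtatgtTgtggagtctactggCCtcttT
Gm6981 differs from Gapdh at 13 of these bases. This window was picked for its many differences from the parent, and the Ndufb4 and Ptp4a2 windows for few. The Ppp1r2 window was picked first for copies that differ from one another, and then for many differences from the parent.

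A few members held much of the signal. In whole tissue, a low level from few cells of a type and one from little RNA per cell cannot be told apart. The members summed to 7882 TPM in replicate 1 and 4755 TPM in replicate 2, or 0.788% and 0.475% of all TPM, and to 0.163% and 0.114% of all expected counts. The 5 highest held 45.8% of the members' TPM in replicate 1 and 37.8% in replicate 2. Member levels ran from 5.13 to 1871 TPM in replicate 1 and from 5.13 to 786 TPM in replicate 2, with medians of 25.0 and 15.5 TPM. By the lower of both values, 8 members were at 100 TPM or more, 47 between 10 and 100 and 41 between 5 and 10. By direction, 62 members had the higher TPM in replicate 1 and 34 in replicate 2.

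**Figure D1:**
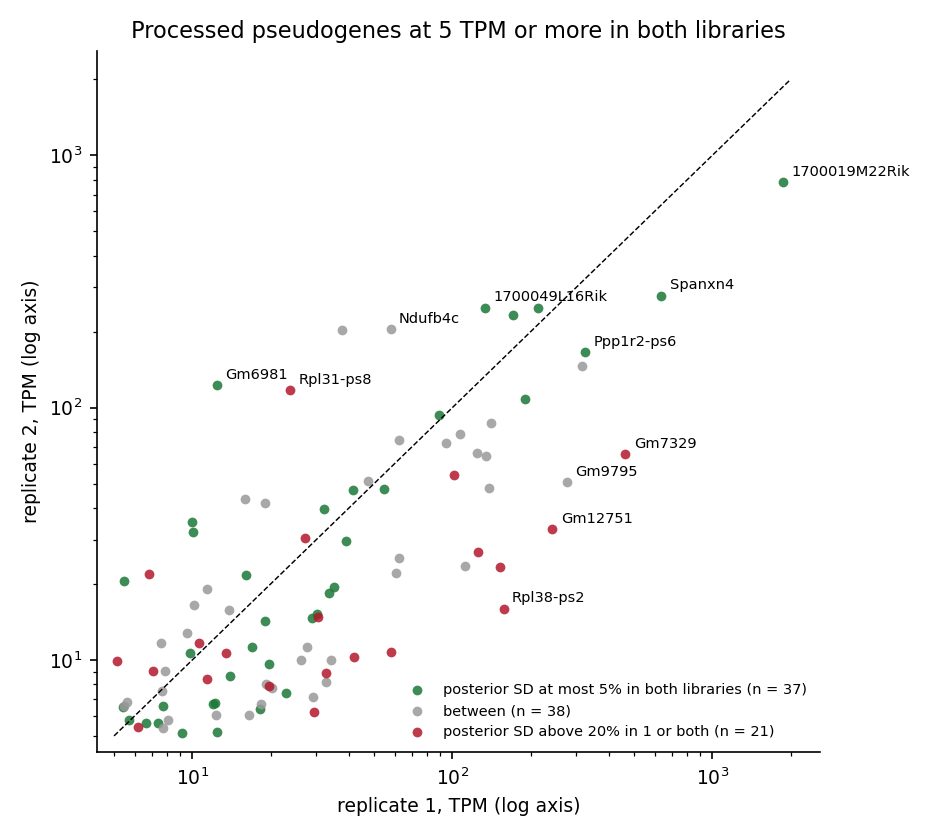
TPM of each of the 96 members in replicate 1 (x axis) and replicate 2 (y axis), both log axes; each point is 1 gene, coloured by the posterior SD of its count, and the dashed line is equality. 1700019M22Rik is highest in both libraries at 1871 and 786 TPM, and Gm6981 lies far above the line at 12.4 and 123 TPM.

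The deposited tables give a posterior SD for each count, which measures how firmly the model could place the reads. A member is called resolved here where that SD was at most 5% of the posterior mean count in both libraries, and shared where it was above 20% in 1 or both. By these limits 37 members (38.5%) were resolved, 21 (21.9%) were shared and 38 lay between. Of autosomal protein-coding genes at 5 TPM or more in both libraries, 98.9% were resolved. The resolved members held 53.0% of the members' TPM in replicate 1 and 57.8% in replicate 2, and the shared ones 19.9% and 10.6%. The SD was 0 in both libraries for 20 members.

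A count of unique sequence, which uses no read, gave a partly different picture. For each member the share of its 50-base words found in no other gene of the tables, on either strand, was computed from its M21 transcript. The word length stands in for the read length, which is not given in the sources used here, and longer or paired reads could tell apart some copies that these words do not. The median was 83.7% for resolved members, 8.67% for those between and 0% for shared members. All 22 members with 75% or more unique words were resolved, and their largest SD was 0.434% of the mean. At the other end, 31 members (32.3%) had no unique word at all, and 3 of these were resolved, 15 lay between and 13 were shared. The 3 resolved ones are Gm7536, Ppp1r2-ps6 and Gm7488, a copy of Nudt21, which encodes a subunit of a messenger RNA cleavage factor. Gm7536 and Gm7488 matched their parents exactly, whereas Ppp1r2-ps6 differed from Ppp1r2 at 14 bases and shared its words mostly with Ppp1r2-ps1. Across the 96 members Spearman's rho between unique words and the larger relative SD was -0.79, a description of values that rest on the same transcripts and libraries.

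**Figure D2:**
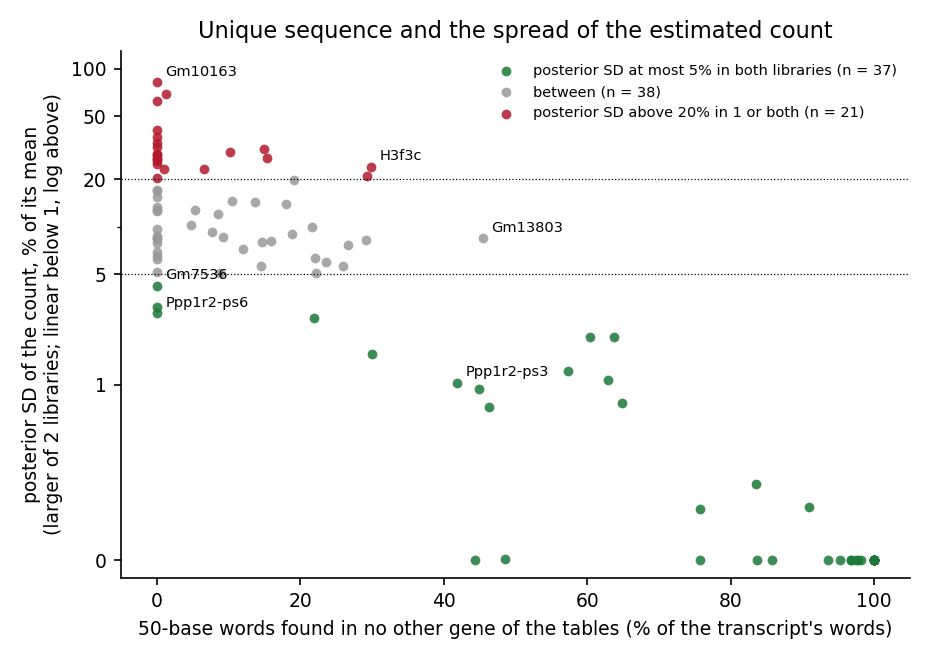
Share of 50-base words unique to the member (x axis, percent) against the posterior SD as percent of the mean count, the larger of both libraries (y axis, linear below 1 and log above); each point is 1 of the 96 members and dotted lines mark the 5% and 20% limits. At 0% unique words the SD runs from under 5% (Ppp1r2-ps6, Gm7536) to above 80% (Gm10163).

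The members that were both resolved and distinct in sequence include the highest of all. 1700019M22Rik (ENSMUSG00000059695.4, chr12:96046767-96047120, minus strand) was at 1871 TPM in replicate 1 and 786 TPM in replicate 2, from 6840 and 1903 expected counts. All of its words were unique and its SD was 0. Its closest coding gene, 1700084M14Rik on chromosome X, was 92.0% identical over 91.0% of its length and stood at 337 and 159 TPM, so the autosomal copy was 5.56 and 4.95 times its parent. Spanxn4 (ENSMUSG00000091396.1, chr12:62687822-62688245, plus strand), named for the SPANX-N family of testis-expressed genes, was at 636 and 278 TPM with all words unique. No coding relative passed the limits of 70% identity over 50% of its length. Together both genes held 31.8% of the members' TPM in replicate 1 and 22.4% in replicate 2.

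Further distinct members illustrate the range. Gm11780, the older Ptp4a2 copy, was at 214 and 249 TPM, its parent at 417 and 137 TPM. It was 78.4% identical to Ptp4a2 and had a longest open reading frame of 171 codons, against 167 in the parent. 1700049L16Rik (chr10:71980092-71980634, minus strand), closest to Jpt2 at 84.2% identity, was at 133 and 249 TPM against 7.39 and 6.47 TPM for Jpt2, or 18.1 and 38.5 times as high. Gm5334 (chr7:68618838-68619557, plus strand) was at 54.8 and 47.6 TPM, while its closest coding gene Tspan7, a tetraspanin gene on chromosome X, was at 2.05 and 3.04 TPM. Identity there was 75.7%, and a frame of 235 codons, against 249 in Tspan7, ran to the end of the M21 transcript without a stop. The deposited lengths of 1700049L16Rik and Gm5334, 805 and 1550 bases, differ from those of the M21 transcripts that the sequence measures describe. Gm15881, inside an intron of Galntl6 on the same strand and 71.0% identical to Myadm, was at 16.1 and 21.7 TPM with a frame of 313 codons against 320 in the parent.

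Gm6981, the Gapdh copy shown above, had the widest gap between libraries of the members higher in replicate 2. It was at 12.4 TPM in replicate 1 and 123 TPM in replicate 2, from 221 and 1394 expected counts. Gapdh itself was at 13.4 and 143 TPM, so the copy was at 0.926 and 0.858 times its parent on the TPM scale. On counts they were less alike: Gapdh had 118 and 2428, a scaled log2 ratio of 4.69 against 2.99 for the copy, and the copy held 65.2% and 36.5% of the pair's counts. The copy was 94.2% identical, 48.6% of its words were unique, and its SD was 0% and 0.00717% of the mean. The copy shared words with 163 other genes, most of all with Gm12033 (15.2% of its words) and not with Gapdh. Its longest frame had 335 codons, against 333 in Gapdh. It was the only member among 210 annotated copies of glycolytic genes on the list used.

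Ppp1r2 had the largest family: all 5 of its autosomal processed pseudogenes in the tables were members, by a rule that chose on their levels. Ppp1r2-ps6 was at 324 and 167 TPM, Ppp1r2-ps3 at 190 and 108 TPM, and Ppp1r2-ps1 at 141 and 86.8 TPM. Ppp1r2-ps4 was at 62.4 and 25.4 TPM and Ppp1r2-ps2 at 61.0 and 22.1 TPM, while Ppp1r2 itself on chromosome 16 was at 237 and 113 TPM. The order of the 5 copies was the same in both libraries, and only Ppp1r2-ps6 stood above the parent, at 1.36 and 1.47 times its level. The copies summed to 778 and 409 TPM. Neighbours in that order were as close as 62.4 and 61.0 TPM in replicate 1 (ps4 and ps2), a difference smaller than that between the libraries.

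These levels rest on unequal evidence. Ppp1r2-ps6 and Ppp1r2-ps1, on opposite strands of chromosome 17 (6253903-6254523 and 6324025-6324642), share most of their words with one another. Ppp1r2-ps6 had none of its own and Ppp1r2-ps1 had 8.79%, and their SDs were 1.22% and 2.84%, and 2.36% and 5.11%, of the mean. Ppp1r2-ps3 had 41.8% unique words and an SD of 0.651% and 1.03%. The longest reading frame had the parental length, 206 codons, in Ppp1r2-ps6 and 205 codons in Ppp1r2-ps3, whereas those of Ppp1r2-ps2 and Ppp1r2-ps4 had 156 and 144. Ppp1r2-ps1 also had an open frame of 206 codons, and its annotated span ends before a stop codon. The X-linked copies Ppp1r2-ps7 and Ppp1r2-ps9 belong to another annotated class and are not members. They were at 232 and 97.7 TPM and at 87.7 and 55.3 TPM, with an SD of 0.

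**Figure D3:**
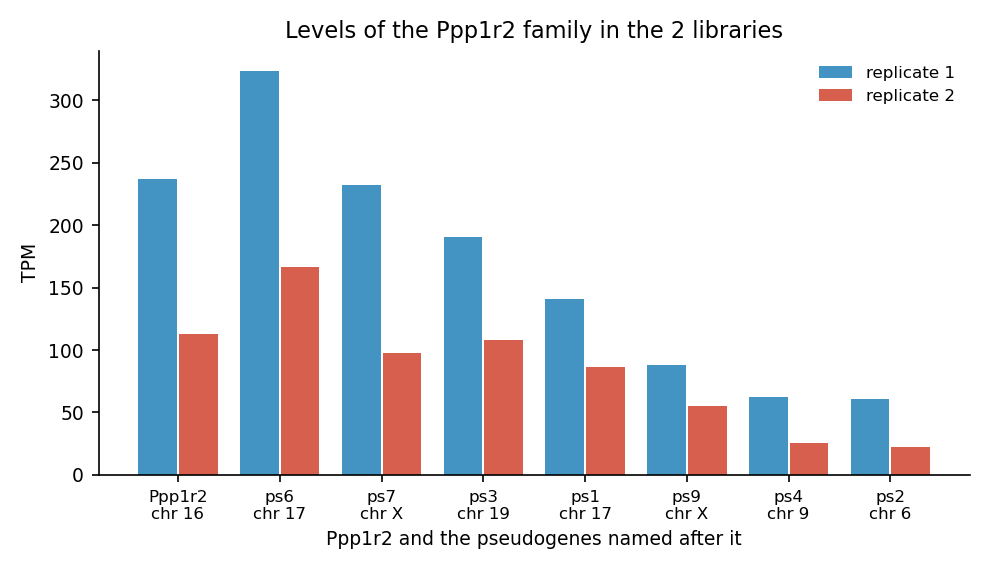
TPM (y axis, from 0) of Ppp1r2 and the 7 pseudogenes named after it, with 1 bar per library; the chromosome stands under each name, and ps7 and ps9 are X-linked and not members. Every bar of replicate 1 is higher than that of replicate 2, and ps6 is highest in both, at 324 and 167 TPM.

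A coding parent was found for 89 of the 96 members (92.7%, against 93.6% of the other autosomal processed pseudogenes). It had several exons for 85 of the 89, whereas all 96 members are annotated with 1 exon. The members were closer copies than the rest: median identity was 99.05% against 90.8%, and 28 members (29.2%) matched their parent exactly over their full length, against 57 of 4239 others (1.34%). The median share of unique words was 15.7% in members and 94.3% in the others. Since a read that fits a parent can be given to its copy, identity and the TPM that chose the members are not independent, and the difference was not tested. A parent on chromosome X was found for 2 members (2.25%), against 3.60% of the others with a parent.

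In most cases the parent was the more abundant transcript. Of 89 members, 65 were below their parent in both libraries, 13 above in both and 11 above in 1 library only, with median ratios of 0.304 and 0.236. Of the 13 above in both, 9 were resolved, but only 5 had 75% or more unique words: 1700019M22Rik, 1700049L16Rik, Gm5334, Gm15881 and Gm4868. Gm4868 was at 10.1 and 32.3 TPM, and 5 genes matched it equally well, so that the value of its listed Y-linked parent Gm20831, 5.09 and 3.69 TPM, is 1 of several. In the other 8, levels above the parent rest at least partly on divided reads. Gm7488 was at 89.2 and 94.0 TPM against 61.8 and 37.4 TPM for Nudt21, and Gm9830 at 94.99 and 72.7 TPM against 72.9 and 41.9 TPM for Ramac, an activating subunit of the messenger RNA cap methyltransferase. Gm10705 was at 316 and 147 TPM against 221 and 86.2 TPM for Ube2l3, a ubiquitin-conjugating enzyme, with 14.6% unique words. Gm7031, closest to Gm5415, had 64.8% unique words and was at 18.2 and 6.39 TPM against 11.1 and 5.49 TPM.

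**Figure D4:**
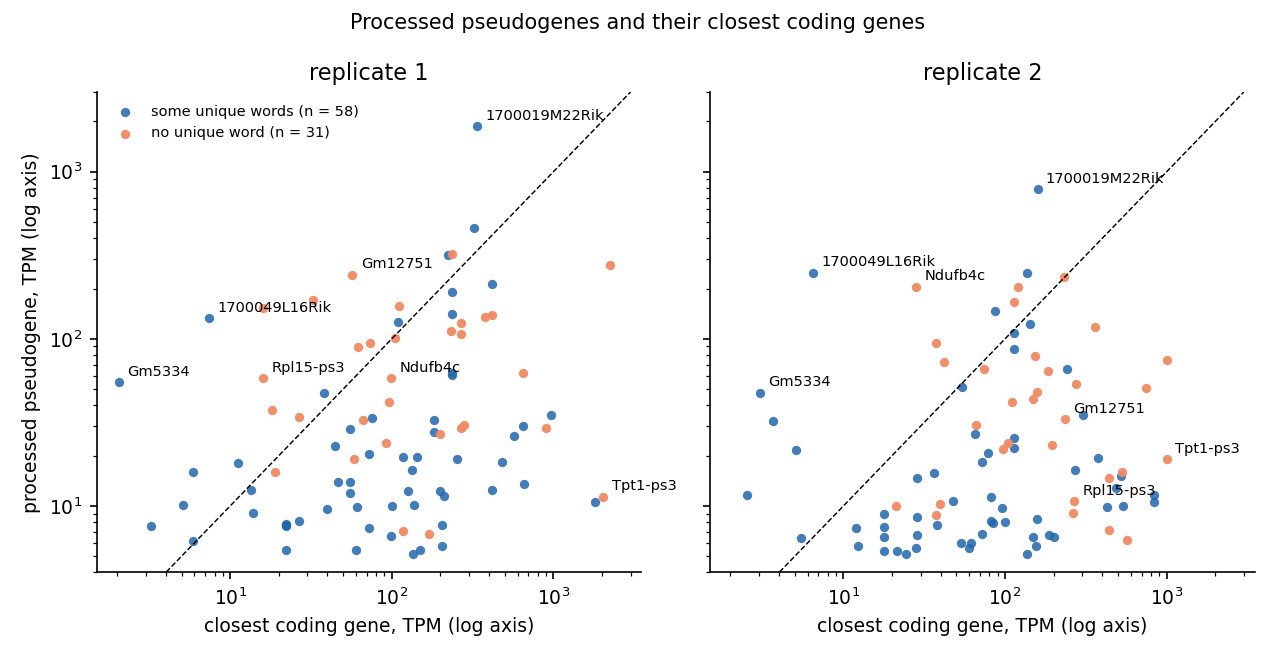
TPM of each of 89 members (y axis) against its closest coding gene (x axis), log axes, 1 panel per library; orange points have no unique 50-base word (n = 31) and the dashed line is equality. 1700049L16Rik and Gm5334 stay far above the line in both panels, whereas Gm12751 and Rpl15-ps3 cross it.

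The members with no unique word often held a different share of the counts summed over member and parent in each library. For 28 of the 31 the parent was the gene sharing most of their words. Some share words with further genes as well, Gm10221 with 8 in all, and how reads were divided among them was not tested. Gm12751, an exact copy of Polr1d, a subunit of RNA polymerases I and III, was at 243 TPM in replicate 1 and 32.9 TPM in replicate 2, while Polr1d was at 57.0 and 233 TPM. The copy held 46.0% of the pair's counts in replicate 1 and 2.87% in replicate 2. Its SD was 1.41% of the mean in replicate 1 and 26.1% in replicate 2. Gm10221, whose M21 transcript is identical to a part of Atp5l, which encodes a subunit of the mitochondrial ATP synthase, held 87.3% and then 8.00% of the pair's counts. Its deposited length, 422 bases, differs from that of the M21 transcript, so the match may not cover all that was quantified. Its level was 152 and 23.3 TPM, against 16.1 and 196 TPM for Atp5l. Ndufb4c went the other way, from 57.9 to 205 TPM while Ndufb4 went from 99.5 to 28.1 TPM, and its share of the pair was 26.0% and 67.3%. For that pair the counts sum to 984 in replicate 1 and 885 in replicate 2, although neither gene's own count is whole.

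Other exact copies stayed below their parents in both libraries. Gm9795 matches Stard6, which encodes a lipid transfer protein of the StAR family, and was at 275 and 50.7 TPM against 2230 and 744 TPM. Its deposited length, 941 bases, also differs from that of the M21 transcript that was matched. Gm13502, a copy of part of the isoprenoid synthesis gene Idi1, was at 42.0 and 10.3 TPM against 96.5 and 39.8 TPM, with an SD of 8.503% and 31.8%. Gm10698, a copy of part of Tmed2, a gene of vesicle transport, was at 27.1 and 30.5 TPM against 198 and 66.1 TPM. Rpl31-ps8 was at 23.7 and 117 TPM, and its parent Rpl31, of the large ribosomal subunit, at 92.3 and 359 TPM, so both were higher in replicate 2.

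Over the 31 members with no unique word, all with a tested parent, 14 pairs had summed counts within 0.02 of a whole number in both libraries, against 0 members on their own. The member and its parent differed in opposite directions between libraries in 11 pairs after TMM scaling, in 8 of which the copy was lower and the parent higher in replicate 2. In 5 of these both differed 2-fold or more: Rpl38-ps2, Gm12751, Gm10221, Rpl15-ps3 and Gm12338, a copy of the cytochrome c oxidase subunit gene Cox7c. With plain totals in place of TMM there were 12 opposite pairs, and Rps13-ps2 took the place of Gm12338 among those 5. A 4-fold gap between libraries was seen in 12 of the 31 members, 6 of their parents and 2 of the summed pairs. The member's median share of the pair's counts was 9.39% in replicate 1 and 4.81% in replicate 2. The summed ratio is thus mostly that of the parent, and the drop from members to sums does not show that reads were divided. The summed pairs still differed by a median of 1.23 on the log2 scale regardless of sign, against 1.37 for the members. For the 18 members with 75% or more unique words and a tested parent, no member differed 4-fold and the medians were 0.98 for the sum and 1.01 for the member. Opposite directions occurred among these as well, in 6 of the 18 pairs. The copy was lower and the parent higher in 2 of them, 0 with both differing 2-fold or more, and the reverse held in 4.

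**Figure D5:**
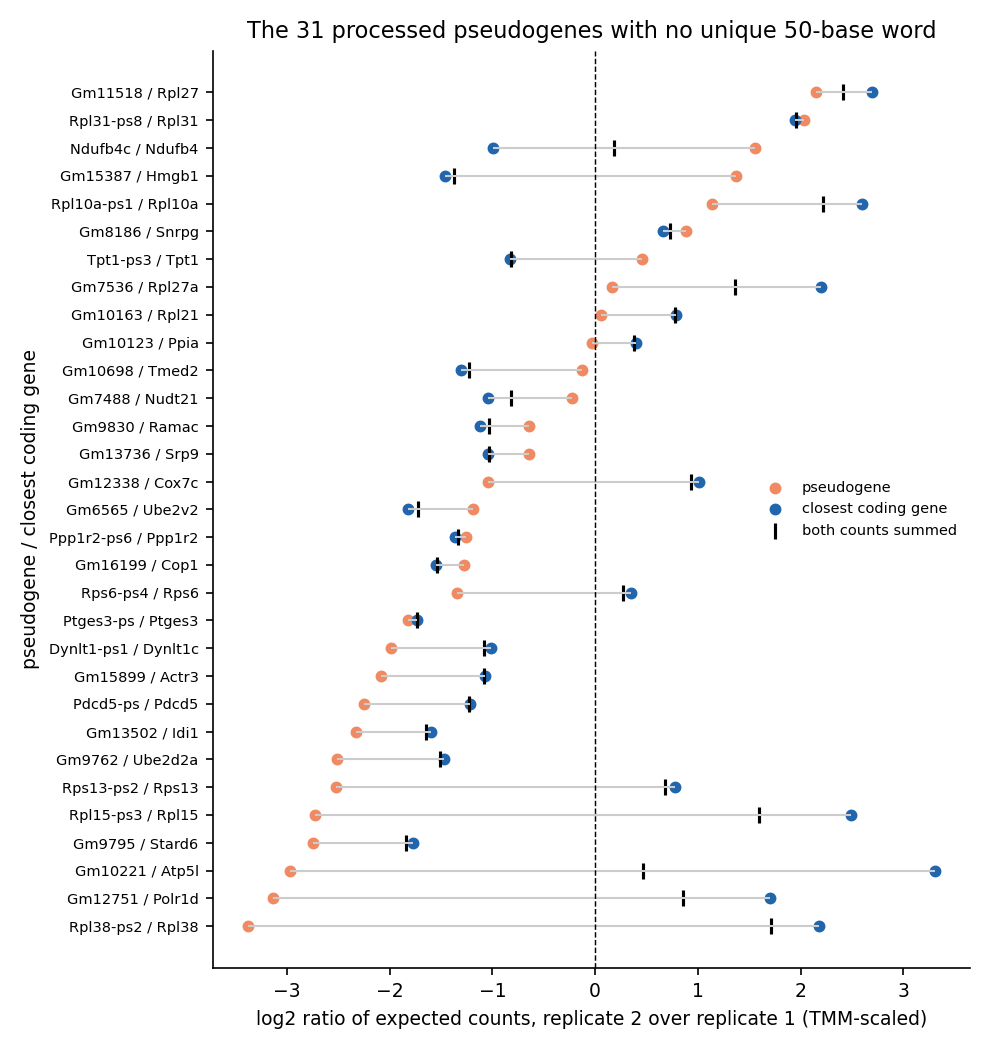
Log2 ratio of expected counts, replicate 2 over replicate 1 after TMM scaling (x axis), for the 31 members with no unique word (orange), their closest coding genes (blue) and both counts summed (black ticks); each row is 1 pair. For Gm10221 and Atp5l the ratios are -2.97 and 3.31 and the sum is at 0.46.

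Grouped by the role of the parent, ribosomal protein copies were the most frequent on the lists used. Of 1145 annotated autosomal copies of cytosolic ribosomal protein genes, 14 were members (1.22%), which is 14.6% of the members against 26.4% of all such pseudogenes. They summed to 596 and 744 TPM, 9 of them had no unique word, and 3 were resolved and 7 shared. Gm7536 was at 171 and 233 TPM and Gm11518, an exact copy of Rpl27, at 37.8 and 204 TPM. Their parents moved from 32.6 to 230 TPM and from 18.3 to 121 TPM. Rpl15-ps3 was at 58.0 and 10.7 TPM with an SD of 62.6% and 61.1%, and Gm10163, closest to Rpl21, had the widest SD of all, 82.5% and 81.9%, at 7.07 and 9.04 TPM.

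Copies of genes for respiratory chain proteins gave 4 members of 112 annotated, 3 of them without a unique word: Ndufb4c, Gm10221 and Gm12338. Those of ubiquitin and proteasome genes gave 3 of 78, led by Gm10705 and by Gm6565, an exact copy of the ubiquitin-conjugating enzyme variant gene Ube2v2, at 125 and 66.2 TPM. The 3 of 108 members from RNA-binding protein genes were all resolved. Among these, Gm7964 (closest to Hnrnpk) was at 35.0 and 19.4 TPM, only 0.0363 and 0.0515 times its parent, and Gm6244 (closest to Hnrnpa1) was at 33.4 and 18.4 TPM.

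The remaining lists had few members. Chaperones and peptidyl-prolyl isomerases gave 3 of 100, among them Gm10123, an exact copy of Ppia, at 62.2 and 74.2 TPM against 649 and 1012 TPM for Ppia. Translation factors gave 2 of 74: Tpt1-ps3 was at 11.4 and 19.1 TPM, against 2039 and 1001 TPM for Tpt1, and Gm10157, closest to Eif1, at 10.6 and 11.6 TPM. HMG proteins, which bind chromatin, gave 2 of 121: Gm15387, closest to Hmgb1, at 6.82 and 21.8 TPM, and Gm13237, closest to Hmgb2, at 19.7 and 7.88 TPM. Tubulin, actin and cofilin genes gave 1 of 37, Gm15899 (a copy of part of Actr3) at 32.6 and 8.84 TPM. Nucleophosmin, histone chaperones and Set gave 1 of 19, Gm4204 (closest to Nap1l1) at 19.2 and 8.05 TPM. Parents outside all lists accounted for 55 members.

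Some members shared a coding parent, or words, with other members. The neighbours Gm7732, Gm7736, Gm7740 and Gm7742 on chromosome 17 (from 21129351 to 21200478, plus strand) are 94.5% to 95.02% identical to the coding gene Gm7358, which was at 22.2 and 17.9 TPM. Each was between 5.38 and 9.01 TPM in either library, and 3 of the 4 had a frame of 508 codons, the length of the parent protein. Gm7275, Gm12378 and Gm6611 share the parent AF366264, which was at 55.4 and 28.4 TPM. These copies were at 29.0 and 14.6, 14.0 and 8.60, and 12.0 and 6.71 TPM, and all were resolved with 63.0% to 85.8% unique words. The 7 members without a coding relative include Gm12206, Gm12209 and Gm12203 on chromosome 11, which share words with one another, and Gm6729 and Gm5174 on chromosome 10. Gm12206 was at 41.4 and 47.1 TPM and Gm6729 at 39.0 and 29.7 TPM.

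Reading frames were compared with the parent protein for 89 members, by length only. Whether a frame is the parental one was not checked. The longest frame from ATG to a stop, or to the end of the annotated transcript where no stop came first, reached 90% or more of the parental length in 52, lay between 50% and 90% in 20 and was shorter in 17. Of the 52, 15 ran to the end without a stop, as in Gm7536 with 148 codons. Frames of 90% or more occurred in 16 of 31 resolved members with a parent, 24 of 37 between and 12 of 21 shared ones, and 23 of the 52 were in copies with 100% identity to the parent. A frame is a property of the sequence, and no protein was measured. As a scale, all 16 coding retrogenes of testis examined were at 1 TPM or more in both libraries, among them Pgk2, the testis phosphoglycerate kinase, at 1295 and 1045 TPM, so that 1700019M22Rik stood above it in replicate 1 and below it in replicate 2.

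Few members overlapped an exon of another gene. Gm43213 alone lay by 50% or more (78.9%) in an exon of another gene on the same strand, 4930594C11Rik, and Rpl19-ps11 overlapped one in part. No member overlapped an exon on the opposite strand. Inside an intron on the same strand were 13 members, 9 of them in protein-coding hosts, such as Ndufb4c in Mroh5, Gm15881 in Galntl6, Gm15542 in Psmd13 and Gm16550 in Tbx19. The part of unspliced host RNA in their counts was not tested.

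Short and thinly counted members need separate mention. Of the members, 16 (16.7%) were shorter than 350 bases, the lower end of the library size range, against 10 (0.132%) of coding genes at the same level. Gm16550, 126 bases long, was listed at 125 and 26.9 TPM from 6.08 and 1.05 expected counts, since the deposited effective length was 2.23 and 2.86 bases. The exact 95% Poisson intervals of its rounded counts were 2.20 to 13.1 and 0.0253 to 5.57, and cover counting error only. Gm7329, 210 bases of the malic enzyme gene Me1 at 99.05% identity, was at 463 and 65.7 TPM from 422 and 42.5 counts. Rpl38-ps2, 213 bases, was at 158 and 15.98 TPM from 151 and 10.8 counts. In all, 9 members had fewer than 20 counts in 1 or both libraries, 7 of them shorter than 350 bases.

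Between the libraries, 95 members could be tested and 53 (55.8%) differed 2-fold or more at an adjusted p under 0.05 in the exact conditional binomial test, against 48.0% of all tested genes with 5 TPM or more in both. The TPM limit bounds the ratio of these genes too. Before GC matching, the overall share of members lies near that background. After GC matching, described below, the shares were further apart. By direction, 44 members (46.3%) were higher in replicate 1 and 9 (9.47%) in replicate 2, where all genes above the same limit gave 28.5% and 19.5%. With plain totals that background turned round, to 17.3% higher in replicate 1 and 23.7% in replicate 2, while members gave 32.6% and 10.5%. The median log2 ratio, replicate 2 over replicate 1, was -0.83 in members and -0.38 in those genes, and -0.54 and -0.09 with plain totals. The test takes the estimated counts as given and ignores how reads were divided, so a call for a shared member includes that division. Calls were made for 19 of 37 resolved members, 21 of 38 between and 13 of 20 shared ones.

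GC content moved with these ratios. Members called higher in replicate 2 had a median GC of 52.8% and those higher in replicate 1 of 45.7%. Spearman's rho between GC and the log2 ratio was 0.55 over 93 members, against 0.86 over all genes at 5 TPM or more. After each gene's ratio was centred on genes with nearly the same GC content, 33 members were called, 25 (26.9%) higher in replicate 1 and 8 (8.60%) in replicate 2. For all genes at 5 TPM or more those shares were 6.67% and 6.94%. Among called members with a mean of 100 counts or more, the largest log2 ratios were 2.99 for Gm6981, 2.15 for Gm11518, 2.03 for Rpl31-ps8 and 1.55 for Ndufb4c, and, in the other direction, -3.13 for Gm12751, -2.97 for Gm10221, -2.94 for Gm7329 and -2.75 for Gm9795. Of these 8, only Gm6981 was resolved. Its log2 ratio was 1.77 against genes of similar GC.

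The limit of 5 TPM cuts through a continuum. The members closest to it by their lower value were Gm13422 (12.4 and 5.17 TPM), Gm13988 (9.10 and 5.13 TPM) and Gm10288 (5.13 and 9.89 TPM). Just outside were Gm4875 (4.90 and 39.6 TPM), Gm9385 (48.7 and 4.86 TPM) and Bloc1s2-ps (5.99 and 4.77 TPM).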

How the data were processed

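PolyA RNA-seq was measured in 2 technical replicate libraries of 1 testis. Per the deposited notes, the authors quantified genes from transcriptome alignments on mm10 with annotation M4, with a program not given in the sources used here. Expected counts (estimated reads per gene) were deposited by the authors with posterior mean counts, their SD, TPM and FPKM, and the authors deposited transcript tables in TPM too. Gene classes, names and sequences came from GENCODE M21 on the same assembly. The length of 74 of the 96 members was the same in both releases, and sequence measures of the other members describe the M21 transcript.

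Closest coding genes were found with BLAST 2.17.0 (same strand, identity of 70% or more over 50% or more of the pseudogene, E-value limit 1e-10, overlapping genes left out). Expected counts were rounded, scaled by TMM in edgeR 4.0.16 and compared gene by gene with a conditional binomial test (exact, two-sided), with Benjamini-Hochberg adjustment over 18581 genes averaging at least 10 counts. Calls needed an adjusted p under 0.05 and a 2-fold ratio, with 0.5 added to each count in ratios. On simulated Poisson counts scaled by plain totals (18581 genes, 200 changed 4-fold in either direction), 94.5% of the changed genes were called. That setting has no divided reads, no TMM scaling and few changed genes, so the share does not carry over to 2-fold ratios in these libraries. The test measures only reads of 2 libraries of 1 animal, so p-values say nothing about other mice. With plain totals in place of TMM, all log2 ratios shift by 0.29.

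Members, limits and lists were chosen with earlier results of these data known. Members named in the text are the 10 highest resolved, 10 highest shared and 4 highest others by mean TPM, the 4 largest called ratios in each direction with a mean of 100 counts or more, up to 12 members above their parent, the 2 highest of each list of parents, and the 3 on each side of the limit. Others named (relatives by shared parent, intron and exon overlaps, short members) were chosen after their values were seen. Alternatives were the TPM limit and unit, the SD limits, the scaling, the count filter, DESeq2 1.42.0 size factors, edgeR's exact test, GC matching and leaving out each library.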

Additional observations from a re-analysis of the deposited data

How the results depend on the processing

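The number of members, 96, followed the limit: it was 248 at 1 TPM, 55 at 10 TPM, 154 by posterior mean TPM and 161 by mean TPM over both libraries, and between 145 and 164 with 1 library left out. It stayed between 70 and 125 with FPKM, a minimum of 20 counts, the X and Y chromosomes or transcribed processed pseudogenes. The 37 resolved members became 61 at 2 times the SD limit, and 40 to 52 with 1 library left out. Requiring 20% unique words as well, an alternative chosen after seeing the data, gave 34. The 21 shared members became 35 at 0.5 times the limit, 4 at 2 times the limit, and 8 to 18 with 1 library left out: judged on replicate 1 alone there were 8. Members differing between the libraries numbered 53 (55.8%), against 48.0% of all tested genes with 5 TPM or more in both. Against genes of similar GC there were 33, with 26.9% of members higher in replicate 1 and 8.60% in replicate 2. All genes at 5 TPM or more gave 6.67% and 6.94% there. At a 4-fold ratio there were 15, and the share of all genes at that ratio is not given here. Between 41 and 65 were called under the other settings tried. With plain totals 31 members were higher in replicate 1 and 10 in replicate 2, and the share of called genes of all kinds that were higher in replicate 2 was 70.2% in place of 57.3%. Members above their parent numbered 13, and 15 to 22 when judged on 1 library. Those in exons of another gene went from 1 to 2 when any base counted. The 8 largest library ratios stayed called in the same direction under all 5 settings run on each. No paired analysis was possible because there is 1 group.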
